A study of Mus musculus with 8 samples.

Results

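Interferon-stimulated genes are the genes a cell switches on when it senses virus or when a neighbor's interferon reaches it. Expression of 39 such genes was followed in ID8 IP2 cells that carried the active intracellular domain of Notch3 or an empty vector. The genes were chosen by symbol, with earlier results of these data known. The deposited count tables list 23284 gene symbols, and 38 of the 39 symbols have a row. Ifi27, whose product is a mitochondrial membrane protein, has no row under that symbol. The members were grouped by role as RNA sensors, transcription factors, oligoadenylate synthetases, double-stranded RNA effectors, Ifit proteins, GTPases, ISG15 conjugation and other effectors.

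ID8 IP2 is a mouse ovarian surface epithelial cancer line, cultured in DMEM with serum, and RNA of whole cultures was sequenced. Control lines were infected with empty pCCL lentivirus, and Notch3IC lines with pCCL virus for an HA-tagged Notch3 intracellular domain followed by IRES-GFP. Each of Sets 1 to 4 was a separate infection of the same parental line and gave a matched pair, 4 Control and 4 Notch3IC libraries in all. Every line also carried the FUW-luciferase-mCherry lentivirus, and by the study's methods later testing pointed to mycoplasma in all of them. Effects of the Notch3 domain and of the IRES-GFP that came with it cannot be told apart in this design. The p-values below measure the spread between lines from these infections of 1 parental line.

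As background, cells detect viral RNA in the cytoplasm with the helicases RIG-I (Ddx58) and MDA5 (Ifih1), and the signal leads to secretion of type I interferon. Interferon binds the receptor pair IFNAR1 and IFNAR2, the Janus kinases phosphorylate STAT2, and STAT2 joins IRF9 in the complex ISGF3, which binds the interferon-stimulated response element (ISRE) in promoters. Epithelial cells, including those of the ovary, use the same pathway, and many of its targets also have a basal level without added interferon.

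The 8 libraries held between 15524262 and 28208072 counts. Control totals were 24910528, 19013578, 23601232 and 28208072 in Sets 1 to 4, and Notch3IC totals were 22980440, 15524262, 25344051 and 27107061. Set 2 was the shallowest set in both conditions. Values below are normalized counts, that is counts divided by the library size scaled with the trimmed mean of M-values (TMM) and multiplied by the mean library size. Because these are bulk RNA values, fewer cells that express a gene and less of its RNA per cell cannot be told apart.

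The libraries were first set against their labels. Notch3 had 38.7, 40.6, 70.8 and 42 normalized counts in Control Sets 1 to 4 and 4321, 467, 9220 and 5842 in Notch3IC. All Notch3IC libraries thus lay above all Control libraries, and the Notch3IC library of Set 2 had the lowest level of the 4. The log2 ratio of Notch3 within a set was 6.79, 3.51, 7.01 and 7.10, and the difference between Set 2 and the other sets was −3.47 on the log2 scale (standard error (SE) 0.25, adjusted p = 0.0281, edgeR). Hey1, a direct Notch target that encodes a transcriptional repressor, had a log2 ratio of 7.08, 4.40, 7.55 and 7.86 in the same order. The markers Upk3b, Wt1 and Krt8 of the ovarian surface epithelium and mesothelium were abundant, with Control means of 21821, 12335 and 3320 normalized counts, while Krt7 did not pass the filter on low counts.

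Set 2 thus had the smallest difference in Notch3 between its lines, and Set 1 stood apart in another way. The deviations of its Control and Notch3IC libraries from their group means moved together more closely than in any other set (a correlation across genes of 0.80, against 0.40, 0.57 and 0.41 in Sets 2, 3 and 4). Many estimates moved when Set 1 or Set 2 was dropped, and for the genes the results turn on those values stand beside the main ones.

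Promoter sequence is shown for the 6 members with a fitted log2 difference between Notch3IC and Control of 1 or more in size. The sequences are RefSeq GRCm38.p6 bases 160 to 1 upstream of the annotated start, 5′ to 3′ on the gene's strand. Capitals mark matches to GAAANNGAAA on either strand, the core letters of the ISRE. Oasl1 and Oasl2 lie side by side on the plus strand, at chr5:114923080-114923239 and chr5:114896774-114896933 for the bases shown. Ifit1 (chr19:34640729-34640888) and Ifit3 (chr19:34583369-34583528) share a cluster, also on the plus strand. Gbp3 lies at chr3:142559884-142560043 on the plus strand, where 1 of its 2 annotated starts is shown, and Isg15 at chr4:156200819-156200978 on the minus strand.
Oasl1: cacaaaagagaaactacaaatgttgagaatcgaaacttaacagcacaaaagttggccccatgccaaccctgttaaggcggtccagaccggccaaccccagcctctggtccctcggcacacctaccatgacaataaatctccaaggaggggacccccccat
Oasl2: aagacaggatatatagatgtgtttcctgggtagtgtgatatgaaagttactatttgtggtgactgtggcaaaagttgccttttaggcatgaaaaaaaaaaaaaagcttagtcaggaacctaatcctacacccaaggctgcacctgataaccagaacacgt
Ifit1: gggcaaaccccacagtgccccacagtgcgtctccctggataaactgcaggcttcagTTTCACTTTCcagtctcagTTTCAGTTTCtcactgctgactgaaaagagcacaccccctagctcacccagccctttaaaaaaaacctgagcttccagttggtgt
Ifit3: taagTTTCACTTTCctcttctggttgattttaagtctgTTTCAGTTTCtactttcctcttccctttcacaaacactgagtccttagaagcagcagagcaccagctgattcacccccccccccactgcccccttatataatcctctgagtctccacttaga
Gbp3: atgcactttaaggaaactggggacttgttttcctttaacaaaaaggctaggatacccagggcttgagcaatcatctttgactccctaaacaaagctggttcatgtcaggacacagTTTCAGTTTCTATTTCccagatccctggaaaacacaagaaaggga
Isg15: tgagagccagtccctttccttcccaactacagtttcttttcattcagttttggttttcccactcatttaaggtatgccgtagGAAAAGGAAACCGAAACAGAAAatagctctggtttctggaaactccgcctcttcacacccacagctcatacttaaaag

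The letters GAAANNGAAA occurred within the 250 bases before to 50 bases after the start in 15 of the 30 members that have an entry in the RefSeq promoter table (50%), and in 3.99% of all genes in that table (3.44% of its windows, as a gene can have several). Isg15 held 3 overlapping matches that begin at −78, −72 and −66 relative to the start. Ifit1 held 2 separate ones at −104 and −85, Ifit3 2 at −156 and −122, and Gbp3 2 that overlap, at −45 and −39. Oasl1 and Oasl2 had no match to these letters in the window. The letters TTCNNNGAA, the core of the gamma-activated sequence, occurred in 8 of the 30 members (26.7%) and in 9.55% of all genes (8.3% of windows). The letters GTGGGAA, the core bound by RBPJ, the DNA-binding partner of the Notch intracellular domain, occurred in 4 of the 30 (13.3%) and in 7.25% of all genes (6.38% of windows). These 4 were Eif2ak2, Adar, Trim25 and Isg15, and the match in Isg15 begins at −105. A match describes letters only and does not show that a factor binds there.

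The members spanned a wide range of expression in the Control lines. Per kilobase of exon, the 38 members had a median percentile of 55 among the 20847 genes that could be ranked. Irf1, a transcription factor induced by interferon gamma, had the highest Control level at 414 normalized counts per kilobase. It was followed by Trim25 (332), the ubiquitin ligase that acts on RIG-I, by Bst2 (311), which encodes tetherin, by Eif2ak2 (301), which encodes the kinase PKR, and by Ifit2 (300). Of the 38 members, 27 passed edgeR's filter on low counts and 26 of these had at least 10 counts in every library. The exception, Ifit3, had a lowest count of 7.

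The 11 members that did not pass the filter, with at most 22 counts in any library, include several of the classic interferon-stimulated genes. They were Mx1 and Mx2 (dynamin-like GTPases that trap viral particles), Oas1a, Oas1g, Oas2 and Oas3 (which make the second messenger that activates RNase L), Usp18 (which removes ISG15 and damps the receptor), Rsad2 (viperin), Cmpk2, Ifi44 and Ddx60. Mx1 had 0, 1, 0 and 1 counts in Control Sets 1 to 4 and 1, 0, 1 and 0 in Notch3IC. Oas2 had 0, 0, 0 and 1 counts against 0, 1, 1 and 0, and Rsad2 had 7, 14, 2 and 8 counts against 7, 3, 5 and 2. For Oas1a the Control libraries held 9, 4, 0 and 3 counts and the Notch3IC libraries 8, 1, 1 and 3, and for Usp18 the counts were 3, 5, 6 and 0 against 9, 1, 1 and 4. The conditions overlapped for each of these genes, and a difference was not detectable at this depth. Summed over the 11 genes, Control libraries held 41, 66, 38 and 30 counts and Notch3IC libraries 76, 18, 40 and 36. Oas1a and Oas1g share 40.9% and 31.2% of their 100-base exon windows with each other in GENCODE M21, so their counts are uncertain.

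The first question was whether Notch3IC lines differed from Control lines in these genes. For most members no difference was called. Oasl1, an oligoadenylate synthetase-like protein without catalytic activity that restrains translation of Irf7, fell by 1.69 on the log2 scale in edgeR's test, which called no member higher. The 4 largest positive estimates were those of Gbp3, Ifit3, Ifit1 and Isg15, at 1.35, 1.31, 1.06 and 1.02, and none passed the adjusted threshold. The estimates were within 0.5 of 0 for 17 of the 27 members tested, and the share of all genes in that range was not computed. Ddx58, Ifit2, Trim25 and Bst2, with an unadjusted p under 0.05 in edgeR's test, are among these 17. A small estimate can also average sets of opposite sign. Ifih1, at 0.41, had log2 ratios of 1.01, −0.63, 0.65 and 0.31 in Sets 1 to 4. A call required, in edgeR's quasi-likelihood test, an adjusted p under 0.1 (Benjamini-Hochberg over 12430 genes) together with a fitted log2 difference of 1 or more in size. By that rule 0 of the 27 members were higher, against 3.4% of all genes tested, and 1 was lower, against 0.74%. This fit had no term for the set, although the libraries are matched pairs. DESeq2, with 34 members and 14013 genes tested, called 1 member higher (Isg15, background 5.05%) and 2 lower (Oasl1 and Oasl2, background 1.36%). At an unadjusted p under 0.05 and any fold, edgeR gave 4 members higher (Ddx58, Ifit2, Ifit3 and Isg15), against a background of 11.8%, and 4 lower (Oasl1, Oasl2, Trim25 and Bst2), against 6.65%. With the set as a block and any fold, 5 members had an adjusted p under 0.1 and a positive estimate (Ifit2, Isg15, Herc6, Isg20 and Samd9l, background 14.9%) and 3 a negative one (Oasl1, Trim25 and Bst2, background 12.1%), and Oasl1 was again the only one past the fold limit. The median log2 fold change of the 27 members was 0.31, beside −0.01 for all genes tested, and 18 of the 27 estimates were positive, beside 48.4% of all genes, while 9 were negative, beside 51.6%.

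**Figure D1:**
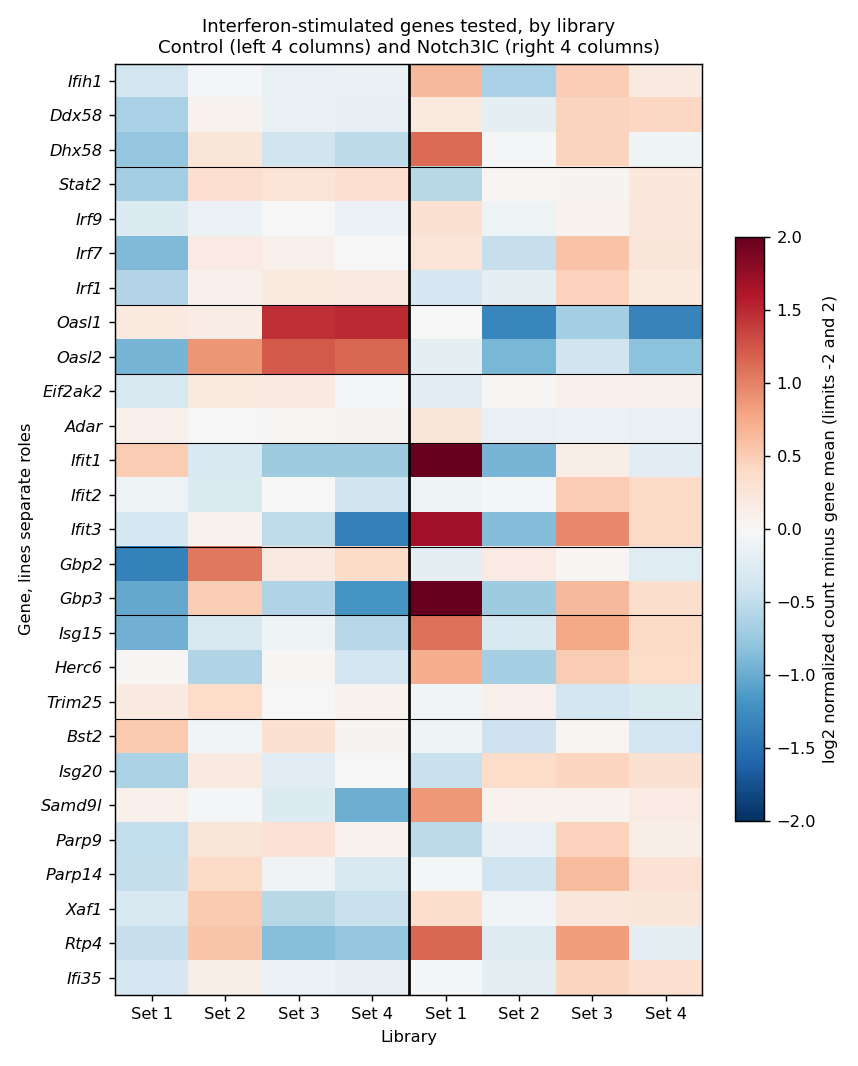
Log2 normalized counts of the 27 members tested, each minus its gene mean, with Control libraries of Sets 1 to 4 on the left and Notch3IC libraries on the right (color scale from −2 to 2, horizontal lines between roles). Oasl1 and Oasl2 are low in the Notch3IC libraries of Sets 2, 3 and 4, and Ifit1, Ifit3, Gbp3 and Isg15 are highest in the Notch3IC library of Set 1.

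Among the RNA sensors, all 3 members tested had positive estimates and 0 passed the test. Ifih1 had 260, 329, 301 and 304 normalized counts in Control Sets 1 to 4 and 522, 212, 471 and 377 in Notch3IC. The Notch3IC libraries of Sets 1, 3 and 4 lay above every Control library, and that of Set 2 lay below every one. Ddx58 had 452, 743, 637 and 633 in Control and 807, 624, 966 and 943 in Notch3IC, where only the Notch3IC library of Set 2 was inside the Control range. The fitted log2 fold changes were 0.41 for Ifih1 (SE 0.25, adjusted p = 0.446) and 0.44 for Ddx58 (SE 0.19, adjusted p = 0.253). Dhx58, the regulatory helicase LGP2, had 13.9, 28.7, 18.2 and 16.6 normalized counts in the Control lines and 53.7, 23.4, 33.1 and 22.8 in the Notch3IC lines (log2 fold change 0.79, SE 0.37, adjusted p = 0.307). The Notch3IC line was the lower one in Set 2 alone, as for the other sensors. With Set 1 left out the estimates were 0.19 for Ifih1, 0.33 for Ddx58 and 0.34 for Dhx58. With Set 2 left out they were 0.66 (edgeR adjusted p = 0.0621), 0.66 (adjusted p = 0.0713) and 1.15 (adjusted p = 0.142). In these fits, which had no block, no sensor reached the fold limit with an adjusted p under 0.1. Ifih1 was at 0.25 without the Notch3IC library of Set 1 alone. Dhx58 was called higher with the set as a block and Set 2 left out, a fit added after the data were seen (log2 fold change 1.09, SE 0.35, edgeR adjusted p = 0.0586, background 7.24%).

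The transcription factors of the pathway had small estimates, with 0 of 4 members called. Stat2, a subunit of ISGF3, had 332, 670, 647 and 663 normalized counts in Control and 365, 548, 555 and 621 in Notch3IC. Irf9, its DNA-binding partner, had 173, 192, 206 and 193 against 258, 195, 219 and 243. Stat2 was lowest in both Set 1 libraries, whereas Irf9 was highest in the Notch3IC library of Set 1. Irf7, which drives the interferon-alpha genes, had 43.6, 90.7, 86.1 and 80.1 in Control and 96.2, 58.6, 120 and 95.5 in Notch3IC. Irf1 had 1089, 1754, 1872 and 1862 against 1303, 1440, 2260 and 1873. For both factors the Notch3IC line was the lower one in Set 2 and the higher one in the other sets, though Irf1 was nearly level in Set 4. The log2 fold changes were −0.15 (Stat2), 0.26 (Irf9), 0.31 (Irf7) and 0.06 (Irf1), with SEs of 0.25, 0.14, 0.30 and 0.22, and the smallest adjusted p of the 4 was 0.367. When single libraries or sets were left out, the estimates spanned −0.34 to −0.01 for Stat2, 0.15 to 0.34 for Irf9, 0.11 to 0.57 for Irf7 and −0.09 to 0.18 for Irf1. Irf7 was at its lowest without Set 1 and at its highest without Set 2.

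The oligoadenylate synthetase family held the only call. Oasl1 had 279, 269, 668 and 687 normalized counts in Control Sets 1 to 4 and 243, 98.2, 152 and 96.3 in Notch3IC. Every Notch3IC library was below every Control library, as for 3.75% of all genes tested, but the Set 1 pair was nearly level and the Control libraries of Sets 3 and 4 were the high ones. The means were 475 ± 233 in Control and 147 ± 68.6 in Notch3IC (SD, n = 4 libraries), a log2 fold change of −1.69 (SE 0.43, edgeR adjusted p = 0.0747), and its set-by-set log2 ratios, from Set 1 to Set 4, read −0.20, −1.45, −2.13 and −2.83. Its neighbor Oasl2, which retains synthetase activity in the mouse, had 162, 573, 724 and 685 in Control and 270, 164, 235 and 174 in Notch3IC. In Sets 2, 3 and 4 the Control library was above every Notch3IC library, and in Set 1 the order was turned. The log2 fold change of Oasl2 was −1.34 (SE 0.42, adjusted p = 0.132), and with Set 1 left out edgeR called Oasl1 and Oasl2 both lower (2 of 27 members, background 1.21%) and 0 members higher (background 3.2%). The call of Oasl1 was lost on leaving out the Control library of Set 3 (log2 fold change −1.48, edgeR adjusted p = 0.196), its Notch3IC library (−1.71, 0.188), the Control library of Set 4 (−1.46, 0.215) or its Notch3IC library (−1.53, 0.224), without both libraries of Set 3 (−1.50, 0.436) and without both of Set 4 (−1.30, 0.551). Over all genes, those fits called 8, 29, 11, 16, 0 and 0 lower, in the same order, beside 92 with all 8 libraries. In GENCODE M21, exons of Gm13822 on the opposite strand cover 1.46% of the exon bases of Oasl1.

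The double-stranded RNA effectors had a median log2 fold change of −0.05, the nearest to 0 of any role. Eif2ak2 had 1216, 1737, 1719 and 1490 normalized counts in Control and 1311, 1546, 1629 and 1608 in Notch3IC. Adar, the RNA-editing enzyme that marks cellular double-stranded RNA as self, had 1569, 1459, 1477 and 1516 against 1722, 1307, 1341 and 1309. The ranges overlapped for both, with log2 fold changes of −0.02 (SE 0.13) and −0.08 (SE 0.11). Exons of Chrnb2 on the opposite strand cover 16.8% of the exon bases of Adar, and whether the counting used strand is not given in the sources used here.

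The Ifit proteins bind foreign RNA and block its translation. Ifit1 had 96.2, 54.9, 41.2 and 41.2 normalized counts in Control and 320, 35.2, 74.5 and 58.3 in Notch3IC. Its level was highest in Set 1 in both conditions, and the Notch3IC library of Set 2 was the lowest of all 8. Ifit3 had 14.9, 20.3, 13.4 and 7.14 in Control and 62.6, 10.3, 37.7 and 25.3 in Notch3IC, so that Sets 1, 3 and 4 separated by condition and Set 2 ran the other way. The log2 fold changes were 1.06 (SE 0.68, adjusted p = 0.461) for Ifit1 and 1.31 (SE 0.54, adjusted p = 0.243) for Ifit3, and without the Notch3IC library of Set 1 the estimate for Ifit1 was −0.04 and that for Ifit3 0.86. Ifit3 was at 0.91 with Set 1 left out and at 1.82 with Set 2 left out. Ifit2 had a narrower range, 1017 to 1345 in Control and 1263 to 1899 in Notch3IC, and was higher in Notch3IC in all 4 sets. Its Set 1 pair was nearly level (log2 ratio 0.02). In GENCODE M21, 31.7% of the 100-base exon windows of Ifit3 have an exact copy in Ifit3b, so counts of Ifit3 are uncertain.

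Among the GTPases, 2 of 4 members could be tested. Guanylate-binding proteins coat vacuoles that hold pathogens and are strongly induced by interferon gamma. Gbp2 had 78.3, 419, 228 and 264 normalized counts in Control and 176, 226, 204 and 170 in Notch3IC, with the lowest and the highest level both among the Control libraries (log2 fold change −0.35, SE 0.42, adjusted p = 0.721). Gbp3, described here after its values were seen, had 24.8, 71.6, 33.5 and 22.2 in Control and 208, 30.8, 80 and 65.1 in Notch3IC. It carried the largest ratio of any member tested within a set, a log2 ratio of 3.04 in Set 1, and a log2 ratio of −1.21 in Set 2. Its estimate was 0.50 with Set 1 left out and 2.12 with Set 2 left out.

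ISG15 is a ubiquitin-like protein that is conjugated to other proteins after interferon treatment, in mice by the ligase HERC6. Isg15 had 68.4, 107, 126 and 89.6 normalized counts in Control and 286, 108, 226 and 175 in Notch3IC. The Set 2 pair was level, and the other 3 Notch3IC libraries lay above all Control libraries. The means were 97.9 ± 24.8 and 199 ± 75.6 (SD, n = 4), a log2 fold change of 1.02 (SE 0.32, edgeR adjusted p = 0.128, DESeq2 adjusted p = 0.0295). With Set 1 left out the edgeR estimate was below the fold limit, at 0.66 (adjusted p = 0.249), and with Set 2 left out it was 1.27 (adjusted p = 0.0548). Herc6 was at 205 to 317 in Control and 196 to 518 in Notch3IC, and Trim25 at 1712 to 2205 and 1309 to 1835. Trim25 was lower in Notch3IC in all 4 sets, with a log2 fold change of −0.30 (SE 0.13, adjusted p = 0.266, and 0.0318 with the set as a block, below the fold limit).

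The remaining effectors showed no call. Bst2 had 347, 232, 297 and 250 normalized counts in Control and 225, 180, 247 and 184 in Notch3IC. It was lower in Notch3IC in each of the 4 sets, while the ranges overlapped (log2 fold change −0.43, SE 0.18, adjusted p = 0.247, and 0.0554 with the set as a block, below the fold limit). Xaf1, an antagonist of the apoptosis inhibitor XIAP, had 44.6, 78.8, 37.3 and 40.4 against 70.5, 52.7, 64.4 and 65.1, with the Control library of Set 2 the highest of all 8. Rtp4, which encodes a receptor transporter protein, had 13.9, 28.7, 10.5 and 11.1 against 43.6, 16.1, 34.9 and 16.9. Parp14, an ADP-ribosyltransferase, had 84.3, 154, 112 and 94.3 against 114, 89.4, 183 and 144. For each of these 3 genes Set 2 held the highest Control level and the lowest Notch3IC level. The 6 tested members of this role besides Bst2 and Xaf1 were Isg20, Samd9l, Parp9, Parp14, Rtp4 and Ifi35, with log2 fold changes from −0.03 (Parp9) to 0.82 (Rtp4).

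**Figure D2:**
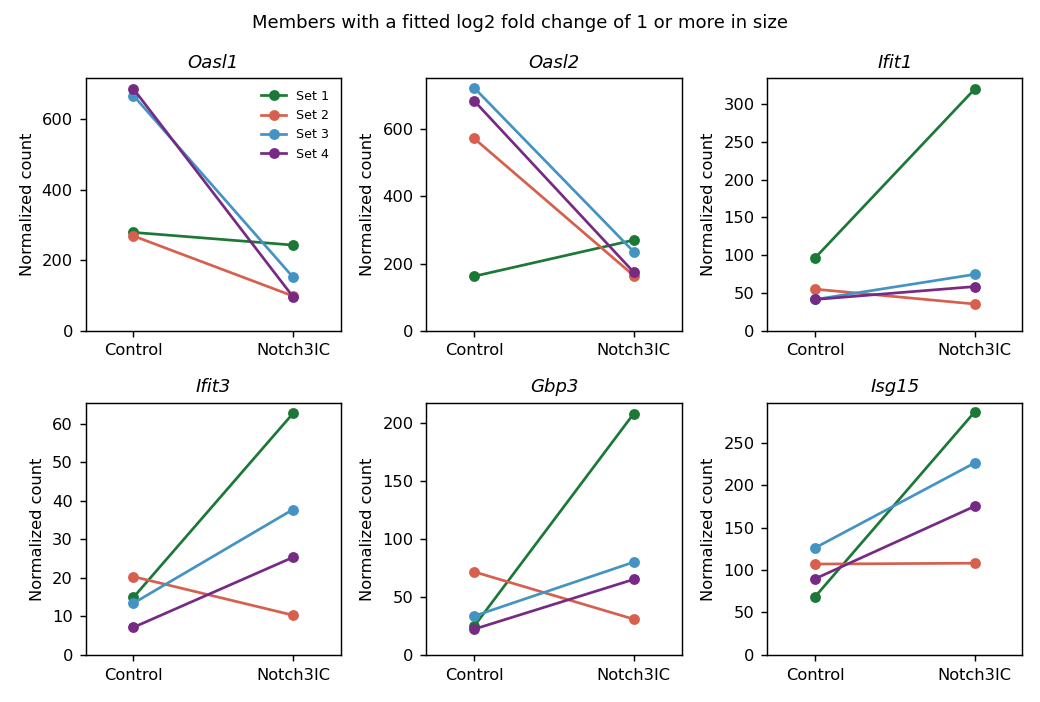
Normalized counts of 6 members (vertical axis from 0) in the Control and Notch3IC library of each set, with a line joining the matched pair. Lines of Oasl1 and Oasl2 slope down most in Sets 3 and 4, and those of Ifit1, Ifit3, Gbp3 and Isg15 slope up most in Set 1, while in Set 2 Isg15 is level (107 and 108) and the other 3 slope down.

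The second question was how the matched pairs of the 4 sets compared. In Sets 1, 3 and 4 most members were higher in the Notch3IC line, and in Set 2 most were lower. The number of members higher in Notch3IC was 23, 5, 19 and 20 of 27 in Sets 1 to 4, against a background of 48.4%, 52.2%, 49.2% and 50.2% of all genes tested. The median log2 ratio of the members was 0.65 in Set 1, −0.31 in Set 2, 0.49 in Set 3 and 0.34 in Set 4, and that of all genes tested was between −0.01 and 0.01 in every set. These are single pairs, so a ratio within a set has no replicate.

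The members with the opposite sign in Set 2 could be counted. In all, 13 of 27 members were higher in Notch3IC in Sets 1, 3 and 4 and lower in Set 2 (48.1%, background 11.4%), and 0 of 27 had the opposite pattern (background 14%). The 13 were the sensors Ifih1, Ddx58 and Dhx58, the factors Irf7 and Irf1, the effectors Ifit1, Ifit3, Gbp3 and Herc6, and Parp14, Xaf1, Rtp4 and Ifi35. The count was by sign alone, and Irf1 was nearly level in Set 4 (log2 ratio 0.01) and Herc6 in Set 2 (−0.06). In GENCODE M21, 16.8% of the exon bases of Ifi35 are covered by Gm11626 on the opposite strand, and 13.7% of those of Herc6 and 13.9% of those of Rtp4 by Gm45193 and Gm45338 on the same strand, so counts of these 3 are uncertain. Set 2 gave the lowest ratio of the 4 sets for 21 of 27 members (background 32.9%) and the highest for 0 (background 33.4%). Set 1 gave the highest ratio for 15 of 27 (background 23.5%). Members with a single direction in all 4 sets were near the background: 5 of 27 were higher in every set (Irf9, Ifit2, Isg15, Isg20 and Samd9l, background 21%) and 3 were lower in every set (Oasl1, Trim25 and Bst2, background 19.4%). Some of these pairs were nearly level, namely Irf9 and Isg15 in Set 2 (log2 ratios of 0.02 and 0.01) and Ifit2 in Set 1 (0.02).

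Both libraries of Set 2 took part in this pattern. Among the Control libraries, that of Set 2 held the highest level for 15 of 27 members (background 27%). Among the Notch3IC libraries, that of Set 2 held the lowest level for 16 of 27 (background 28.1%), and that of Set 1 the highest level for 14 of 27 (background 36%). The part that the lower Notch3 level in Set 2, its depth, or the infection itself had in these values was not tested.

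**Figure D3:**
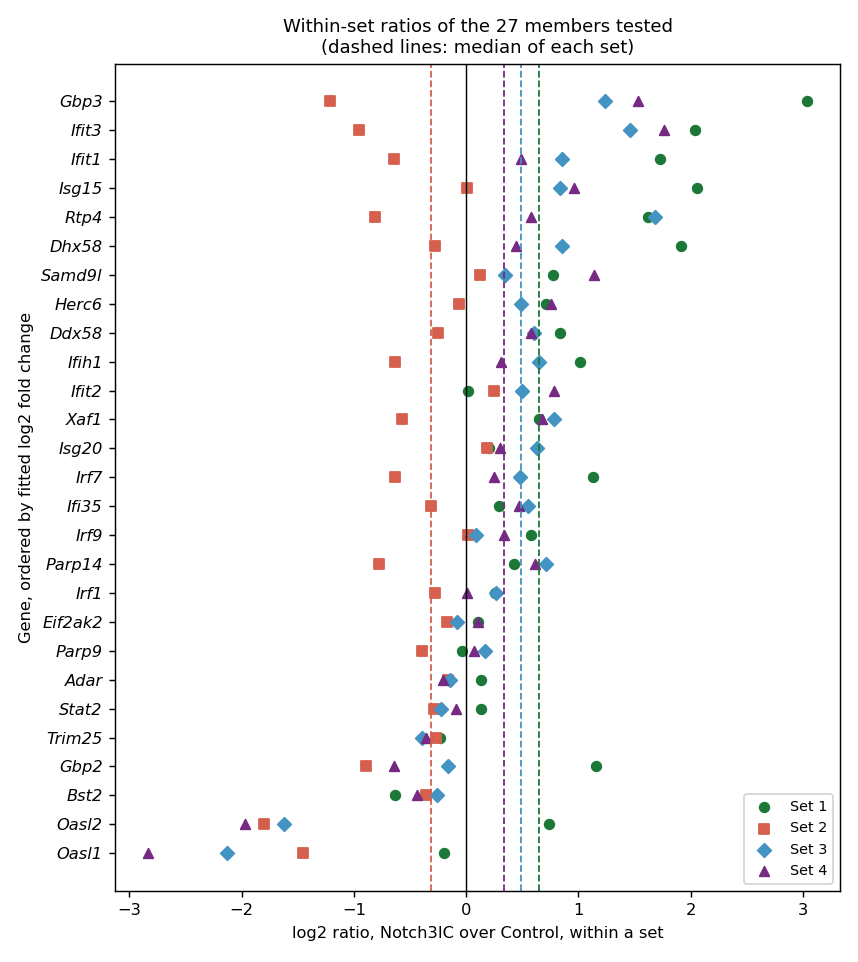
Log2 ratio of Notch3IC over Control within each set (horizontal axis) for the 27 members tested (vertical axis, ordered by fitted log2 fold change), with a dashed line at each set's median. Set 2 lies to the left of the other sets for 21 members, and the set medians are 0.65, −0.31, 0.49 and 0.34 in Sets 1 to 4.

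The contrast of Set 2 with the other sets was then tested. Taken as a level over both conditions, no member was called. This level fit treats the libraries of a set as independent, although they are matched pairs. It sets a single set against the rest, so its p-values describe these libraries only. edgeR called 0 members higher in the Set 2 libraries (background 0.129%) and 0 lower (background 0.0322%). DESeq2, with 30 members tested, also called 0 in each direction (background 1.17% and 0.728%). At an unadjusted p under 0.05, edgeR gave 1 member higher (Trim25, background 5.78%) and 1 lower (Herc6, background 5.17%). The log2 differences ranged from −0.95 (Ifit1) to 0.75 (Gbp2), with a median of −0.05 beside −0.02 for all genes, 11 of 27 were positive (background 47.3%), and the smallest adjusted p of a member was 0.288.

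Taken as the Notch3IC effect in Set 2 minus the mean effect in Sets 1, 3 and 4, the difference was negative for 24 of 27 members. Gbp3 had the largest, −3.19 on the log2 scale (SE 0.81, adjusted p = 0.148, edgeR), followed by Ifit3 at −2.77 (SE 0.62, adjusted p = 0.118) and Rtp4 at −2.18 (SE 0.68, adjusted p = 0.199). Ifih1 was at −1.28 (SE 0.32, adjusted p = 0.138) and Parp14 at −1.38 (SE 0.30, adjusted p = 0.112). The median over the members was −0.75, beside 0.01 for all genes tested, of which 48.9% had a negative difference. The 3 members with a positive one (background 51.1%) were Oasl1, Trim25 and Bst2. Oasl1 was at 0.28 with a wide error (SE 1.08, adjusted p = 0.919).

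None of these differences passed the rule for a call in edgeR. The test, with a term for each set and a separate Notch3IC effect in Set 2, had 2 residual degrees of freedom and rests on a single pair in Set 2, so that its spread comes from the other sets. It called 0 members lower (background 1.26%) and 0 higher (background 0.708%). Ddx58 had the smallest adjusted p, 0.0896, with a difference of −0.92 (SE 0.17) that missed the fold limit. It was the only member with an adjusted p under 0.1 at any fold (background 1.69%), and 0 members had a higher effect by that rule (background 1.14%). At an unadjusted p under 0.05, 13 of 27 members had a lower effect in Set 2 (background 9.37%) and 0 a higher one (background 8.09%). The 13 were Ifih1, Ddx58, Irf7, Irf1, Ifit1, Ifit3, Gbp3, Herc6, Parp9, Parp14, Xaf1, Rtp4 and Ifi35, which share their 8 libraries and are not independent observations. Exons of Dtx3l on the opposite strand cover 9.4% of the exon bases of Parp9. Set 2 was singled out with these values known, so the p-values and counts of this contrast, and the counts by set, are a description and no independent test. DESeq2 called 2 members lower, Ifih1 (adjusted p = 0.0903) and Gbp3 (adjusted p = 0.0471), against a background of 2.04%, and 0 higher (background 1.03%). With Set 1 left out, edgeR called 7 members lower with 1 residual degree of freedom (Ifih1, Ifit1, Ifit3, Gbp3, Parp14, Xaf1 and Rtp4, background 4.6%) and 0 higher (background 2.07%).

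The comparison of the conditions was repeated without Set 2. With both of its libraries left out, edgeR called 3 of 27 members higher (Ifit3, Gbp3 and Isg15, background 5.36%) and 1 lower (Oasl1, background 1.83%). With its Notch3IC library alone left out, 28 members were tested, and Ifit3 and Isg15 were called higher (background 5.58%) and Oasl1 lower (background 2.42%). With the set as a block and Set 2 left out, an alternative added after the data were seen, 6 of 27 were higher (Dhx58, Ifit1, Ifit3, Gbp3, Isg15 and Rtp4, background 7.24%) and Oasl1 was lower (background 3.41%). In that fit Gbp3 had a log2 fold change of 1.97 (SE 0.38, adjusted p = 0.0135, edgeR), Ifit3 of 1.80 (SE 0.26, adjusted p = 0.0054) and Isg15 of 1.27 (SE 0.26, adjusted p = 0.0165). Since Set 2 was singled out with these values known, the counts without it describe the other 3 sets and are no independent support for a difference.

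**Figure D4:**
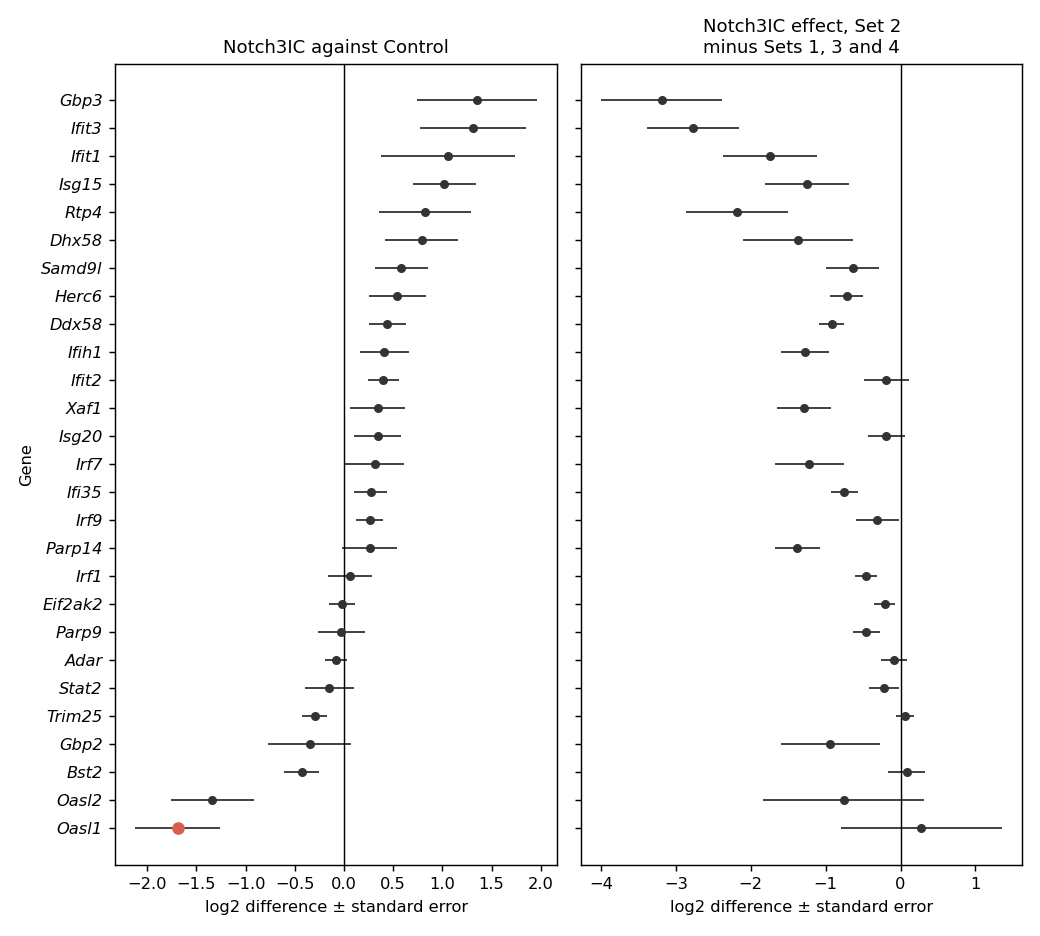
Fitted log2 differences with standard errors for the 27 members tested, on the left Notch3IC against Control over all 8 libraries and on the right the Notch3IC effect in Set 2 minus that in Sets 1, 3 and 4. The called gene, Oasl1, is the red point on the left at −1.69, and 24 of the 27 points on the right lie below 0.

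The pathway upstream of these genes was examined with lists of its parts. RNA of the interferons themselves gave few or no counts. Of 19 ligand rows, 15 had 0 counts in all 8 libraries, which allows up to 0.193 CPM in the shallowest library (3 counts), and the other 4 held 9 counts over all libraries together. Ifnb1, the gene of interferon beta, had 1 count in each library of Set 1 and 0 in the other 6. These limits cover counting error only, and interferon in the medium was not measured.

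Of the 6 receptor genes tested, 0 were called, beside 3.4% of all genes called higher and 0.74% lower. Il28ra, a chain of the interferon-lambda receptor, had the lowest Control mean at 88.2 normalized counts. Ifnar1 had a mean of 2622 ± 645 in Control and 2786 ± 623 in Notch3IC (SD, n = 4), a log2 fold change of 0.09 (edgeR adjusted p = 0.886), and Ifnar2 had a log2 fold change of 0.23 (adjusted p = 0.637). Jak1, a kinase bound to the receptors, and Ifngr1, a receptor of interferon gamma, named after their values were seen, had adjusted p-values of 0.0622 and 0.0591 with log2 fold changes of 0.61 and 0.55, below the fold limit, and every Notch3IC library was above every Control library for both, as for 7.08% of all genes tested. Their partners, also named after their values were seen, had estimates of the other sign, and the Notch3IC line was the lower one in all 4 sets. Ifngr2, the second chain of the interferon-gamma receptor, had a log2 fold change of −0.54 (SE 0.27, adjusted p = 0.331, and 0.0361 with the set as a block). For the kinases Jak2 and Tyk2 it was −0.34 (SE 0.17, adjusted p = 0.343, and 0.0358 with the block) and −0.29 (SE 0.20, adjusted p = 0.5, and 0.0578 with the block), below the fold limit in every case.

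Among the 15 tested genes of sensor adaptors and kinases, 0 were called, against the same background. Irf5, a transcription factor downstream of Toll-like receptors, had 218, 622, 1361 and 997 normalized counts in Control and 72.7, 338, 440 and 243 in Notch3IC. It was lower in Notch3IC in every set, but the sets differed so widely that the conditions overlapped (log2 fold change −1.55, adjusted p = 0.234), and with the set as a block it was called lower (−1.54, SE 0.19, adjusted p = 0.0205), 1 of the 15 against a background of 2.53%. In GENCODE M21, exons of Tnpo3 on the opposite strand cover 14.1% of the exon bases of Irf5, so its counts are uncertain. Tlr6, a Toll-like receptor for bacterial lipopeptides, was called higher with the set as a block and Set 2 left out (log2 fold change 1.04, SE 0.14, adjusted p = 0.00412, background 7.24%), a fit added after the data were seen. Of the 7 inhibitors of interferon signaling 0 were called. Socs1, the feedback inhibitor of Janus kinases, had a log2 fold change of 0.63 (SE 0.46, adjusted p = 0.53).

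A further list of 53 interferon-stimulated genes outside the members, 39 of them tested, gave similar set values. In Sets 1 to 4, 32, 8, 33 and 30 of the 39 were higher in Notch3IC (background 48.4%, 52.2%, 49.2% and 50.2%). The median log2 ratios were 0.49, −0.20, 0.37 and 0.40. This list was also chosen with earlier results of these data known and was read in the same libraries, so it is no independent support. Lgals3bp, which encodes a secreted glycoprotein that binds galectin-3, rose in Notch3IC. It had 81.3, 118, 74.7 and 42.8 normalized counts in Control and 226, 136, 210 and 151 in Notch3IC, without overlap, a log2 fold change of 1.20 (SE 0.32, adjusted p = 0.0837, edgeR), and it was the only one of the 39 called, a share near the 3.4% of all genes called higher. The call was lost on leaving out either library of Set 1, 3 or 4, or all of any of these sets (adjusted p from 0.117 to 0.498). Ifi205, a DNA-binding protein of the p200 family, was called higher with the set as a block (log2 fold change 2.40, SE 0.71, adjusted p = 0.0764), as was Lgals3bp (adjusted p = 0.0429), 2 of the 39 against a background of 5.19%. The effect in Set 2 was called lower than in the other sets for Ifitm1, which encodes a membrane protein that blocks viral fusion (−2.80, SE 0.54, adjusted p = 0.092), and for Parp10, an ADP-ribosyltransferase (−1.03, SE 0.17, adjusted p = 0.0716), 2 of 39 against a background of 1.26%. The difference for Ifitm1 rests in part on a high Control library of Set 2, with 81.2 normalized counts (other Control libraries 1.98, 13.4 and 10.3). With the set as a block and Set 2 left out, 6 of the 39 were called higher and 0 lower (background 7.24% and 3.41%).

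Markers of other cells were measured beside these genes. Of the leukocyte list, 11 of 12 symbols had a row, 3 were tested, and the defining marker Ptprc (CD45) had 2 counts in the Notch3IC library of Set 1 and 0 in the other 7 libraries. Cd3e, Siglech and Emr1, markers of T cells, plasmacytoid dendritic cells and macrophages, were at 0 in all 8. The most abundant gene of the list, Ncam1, is not particular to leukocytes and made up most of the sum, which was 4652, 2424, 2182 and 2278 counts in Control and 5034, 1894, 2452 and 3545 in Notch3IC. Of the 3 tested, 1 was called higher (background 3.4%) and 0 lower. It was Csf1r, the receptor for macrophage colony-stimulating factor, with 8.92, 11.9, 6.7 and 7.14 normalized counts in Control and 40.3, 14.7, 20.2 and 23.7 in Notch3IC (log2 fold change 1.52, SE 0.38, adjusted p = 0.0719 by edgeR, and 0.11 to 0.511 on leaving out libraries of Set 1, 3 or 4). In GENCODE M21, exons of Hmgxb3 on the opposite strand cover 15.1% of the exon bases of Csf1r, so its counts are uncertain. Ncam1 had a log2 fold change of 0.26 (SE 0.38, adjusted p = 0.783), and Cd68, a lysosomal protein abundant in macrophages, one of −0.40 (SE 0.35, adjusted p = 0.61), with 47.6 to 119 normalized counts in Control and 34.7 to 87 in Notch3IC. For 5 endothelial markers the summed counts came to 23, 31, 26 and 15 in the Control libraries and to 45, 19, 30 and 43 in the Notch3IC libraries.

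Markers of the ovarian surface epithelium were also compared. All 8 tested had negative estimates (background 51.6%), and 1 was called lower (background 0.74%). This was Msln, which encodes mesothelin and fell by 2.60 on the log2 scale (adjusted p = 0.0625 by edgeR, and 0.162 to 0.493 on leaving out libraries of Set 3 or 4). With the set as a block 5 of the 8 were called lower (Msln, Krt19, Upk3b, Lrrn4 and Bnc1, background 2.53%). In the Set 2 level contrast 0 of the 8 were called. In the interaction 2 of the 8 were called (background 0.708%), as the effects on Msln and on Krt19, a keratin, were smaller in Set 2 than in the other sets, by 2.37 (SE 0.24, adjusted p = 0.0323) and 1.66 (SE 0.19, adjusted p = 0.0356) on the log2 scale. The part of epithelial state in the values of the interferon-stimulated genes was not tested.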

How the data were processed

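RNA of 4 Control and 4 Notch3IC lines was measured. The authors deposited raw whole-number counts of reads per gene symbol, without normalization, in 1 table per library. The submitters' processing notes name TopHat, Cufflinks and DESeq and the build mm9. Versions, annotation and strandedness are not given in the sources used here. No row lacked a gene name. The members and lists were chosen with earlier results of these data known.

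From the counts, edgeR 4.0.16 (R 4.3.3, limma 3.58.1) gave TMM factors, the expression filter filterByExpr and robust quasi-likelihood F tests over 12430 genes, with p-values adjusted by Benjamini-Hochberg. Calls needed an adjusted p under 0.1 and a log2 difference of 1 or more in size, the study's thresholds. Standard errors are the size of the log2 fold change divided by the square root of F. Ratios within a set used a pseudocount of 0.5. The fit of condition alone was the main one, and the set contrasts used Set 2 against the rest as a level, beside condition, and as an interaction with a term for each set. The biological coefficient of variation was 26.3%, 14.1% with the set as a block and 9.83% with the interaction. The sets pair the libraries: the study made them as matched pairs, and deviations from group means correlated at 0.80, 0.40, 0.57 and 0.41 within sets and from −0.50 to 0.37 across them.

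Alternatives were DESeq2 1.42.0, other normalizations and filters, a pseudocount of 2, other thresholds, the replicate block and leaving out each library and set. The script was tested on simulated data. By the naming rule, values in all libraries were given for members called in the 3 comparisons or with the block and for a set selection of known ones, and others by range. Pathway genes were named when called in those fits, with Ifnb1, Ifnar1, Ifnar2 and Socs1. Another gene of that rule is not reported here. Dhx58, Gbp3, Ifit2, Herc6, Trim25, Parp14, Rtp4, Jak1, Jak2, Tyk2, Ifngr1, Ifngr2, Il28ra and Tlr6 were described after their values were seen. Exon windows of 100 bases were matched on GRCm38 with GENCODE M21, where all 39 members were found, and 28 share no window with another gene. Promoters came from RefSeq on the same assembly, a later build than the mm9 of the counts, so only symbols link them. Figures used Python 3.11.15 and Matplotlib 3.10.9.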

Additional observations from a re-analysis of the deposited data

Results flagged for a closer look

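In groups of 4 libraries, 8 of 112 searched had 1 library whose distance from the nearest other exceeded Dixon's limit, where chance gives about 1 in 20, or 5.6. Set 1 held 6 of the 8. In its Control library Stat2 had 332 normalized counts (others 670, 647 and 663) and Irf1 had 1089 (others 1754, 1872 and 1862). In its Notch3IC library Ifit1 had 320 (others 35.2, 74.5 and 58.3), Samd9l 437 (others 253, 252 and 270), Adar 1722 (others 1307, 1341 and 1309) and Ifnar1 1861 (others 3213, 3058 and 3013). In the Control library of Set 2, Ifitm1 had 81.2 (others 1.98, 13.4 and 10.3). Notch3 had 70.8 in the Control library of Set 3 (others 38.7, 40.6 and 42).

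In edgeR's test of the interaction, the effect of Notch3IC in Set 2 and in the other sets was called different for 6 of the genes named. The effect in Set 2 comes from a single pair without a replicate, so the spread behind these p-values is that of the other sets. The log2 difference was −2.80 for Ifitm1 (adjusted p = 0.092), whose high Control library of Set 2 enters it, −1.03 for Parp10 (0.0716), −3.47 for Notch3 (0.0281) and −3.13 for Hey1 (0.0539). It was 1.66 for Krt19 (0.0356) and 2.37 for Msln (0.0323), both of which were less reduced in Set 2. None of the 6 is a member of the interferon-stimulated genes followed here.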

How the results depend on the processing

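The median of the members stayed positive (0.21 to 0.45) when any library or set was left out. Counts of members called moved as follows. For Notch3IC against Control, DESeq2 gave 1 higher and 2 lower, an adjusted p under 0.05 gave 0 lower, and leaving out libraries or sets gave 0 to 3 higher and 0 to 2 lower. For the effect in Set 2, DESeq2 gave 2 lower, no fold limit gave 1 (Ddx58) and leaving out a set gave 0 to 7, the 7 without Set 1. The level contrast gave 0 throughout. Neither Set 2 contrast could be fitted without Set 2. The replicate block, which uses the pairing, gave 0 members higher and 1 lower, as did the fit without it, and changed the call of 0 members; with Set 2 left out it gave 6 higher, and Eif2ak2 and Gbp2 turned to 0.05 each. Without single libraries or sets, estimates spanned −0.11 to 0.05 for Eif2ak2, −0.65 to 0.02 for Gbp2, −0.09 to 0.18 for Irf1 and −0.04 to 1.41 for Ifit1. Over all genes, calls for Notch3IC against Control were 423 higher and 92 lower, with DESeq2 708 and 190, with the block 645 and 315, with the block and Set 2 left out 904 and 426, and 0 to 702 higher and 0 to 305 lower without single libraries or sets, with 1 higher and 0 lower without Set 3 and 0 of each without Set 4. An adjusted p under 0.05 gave 48 lower, and no fold limit 210 lower. The level contrast gave 16 higher and 4 lower, with DESeq2 153 and 95, with library totals 2 higher, without a filter 41 higher, and 0 to 147 higher and 0 to 107 lower without single libraries or sets. The effect in Set 2 gave 88 higher and 156 lower, with DESeq2 246 lower, at an adjusted p under 0.05 57 and 88, and 81 to 258 higher and 136 to 574 lower without a set. The causes were not tested. Low counts, at most 22 in any library, kept 11 members out of the tests, and 2 residual degrees of freedom limit the interaction.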

Other observations

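RefSeq gives Ifi27l1 as an older symbol of Ifi27, the member without a row, and a row named Ifi27l1 is in the count tables. It had 264, 349, 329 and 155 normalized counts in Control Sets 1 to 4 and 508, 308, 486 and 367 in Notch3IC. Sets 1, 3 and 4 were higher in Notch3IC and Set 2 was lower, as for 13 of the 27 members tested. The log2 fold change was 0.61 (SE 0.27, edgeR adjusted p = 0.281). It was kept out of every count above because the match rests on a synonym.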
